A study of Drosophila melanogaster and Drosophila simulans with 21 samples.

Results

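In whole virgin females, 75 genes and array positions differed between Drosophila melanogaster and its close relative Drosophila simulans while their F1 hybrid daughters stood at the D. melanogaster level. They were 75 of 4753 genes and positions measured well enough to be placed, or 1.58%. A member had a mean log2 difference between the parents of at least 0.5, a hybrid mean within 0.2 of D. melanogaster and a hybrid mean more than 0.2 from D. simulans. Each mean was taken over the 6 arrays of a pair of RNAs and needed at least 4 values. Of the members, 18 carried 1 gene symbol and 57 lay at positions without a symbol. Positions without a symbol were counted singly, and whether any of them share a transcript was not tested. Among the named members were the caspase gene Strica, the kinase gene PEK, the folliculin gene BHD, the chromatin gene caly and the esterase gene CG4757.

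Canton S stood for D. melanogaster and Sim-1 for D. simulans, 1 strain of each, and the hybrids were the female offspring when a Canton S female was mated to a Sim-1 male. Stocks lived at 25 C and the matings, each of 7 to 8 males and as many females, at 18 C, per the labels. Adult virgin daughters and females of both strains spent 5 to 6 days at room temperature and were frozen whole. Each cross was represented by 2 cohorts, but extractions were mixed into 1 RNA pool per strain, so the arrays of a pair are technical repeats and a difference between strains cannot be told apart from a difference between pools. Spotted cDNA arrays compared 2 labelled RNAs at a time, with 6 arrays for each of the 3 pairs, 3 in each channel orientation, and 3 further arrays held the same RNA in both channels. Arrays carried values for 4657 to 4946 positions. The files hold ratios of the 2 channels and no channel intensities, so the absolute level of a transcript, and with it the defining genes of female tissues, could not be read. The spread of the log2 ratios was 0.434 to 0.763 (SD) on arrays with both parents, 0.895 to 1.25 on arrays with hybrid RNA, and 0.209 to 0.215 on arrays with a single RNA.

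A hybrid cell holds a genome copy of each parent, and both copies are exposed to the same regulatory proteins. A parental difference that sits in the gene's own control region usually stays with its allele, so that the summed transcript level lies between the parents. A difference in a shared regulator can instead bring both alleles to the level of one parent. Daughters of this cross inherit their mitochondria and egg cytoplasm from D. melanogaster and 1 X chromosome from each species. The arrays read the sum over both alleles, and the probes are annotated to D. melanogaster genes, so D. simulans RNA was read through probes of the other species; the part of probe mismatch in the parental values was not tested.

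Whether channel 1 or channel 2 is on top in the deposited ratios is not stated in the labels. Arrays of swapped orientation correlated from -0.93 to -0.46 across positions, which fixes the directions relative to each other but not the overall sign. Signs below take channel 1 over channel 2, a reading adopted with earlier results of these data known. In the other reading every D. simulans level described as higher is lower and the reverse, while the members, all sizes and all hybrid distances stay the same. All values are relative to the median position of each array.

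Because the parental and hybrid values chose the members, they are given as a description and carry no test. Parental differences of at least 0.5 were held by 808 of 4753 genes and positions (17%), and the 75 members were 9.28% of these 808. A hybrid mean between the parents and more than 0.2 from each was found at 84 positions (10.4%), and one within 0.2 of D. simulans at 93 (11.5%). These counts depend on the scaling: with all arrays brought to the same spread, 217 positions were at the D. melanogaster level, 272 at the D. simulans level and 65 between. The largest group, 554 (68.6%), had a hybrid mean outside both parents, and 2 lay within 0.2 of both. In the adopted reading D. simulans stood above D. melanogaster at 28 members and below at 47. Of all positions, 7.68% were at least 0.5 above and 9.32% at least 0.5 below. Every member had passed that threshold, so nothing is read from the members' counts beside these shares. The share above was 37.3% of the members and 45.2% of the 808 positions with a parental difference. It was 45.2% of the 93 positions at the D. simulans level and 21.4% of the 84 between the parents. The median parental difference of the members was 0.63 in size, with quartiles of 0.55 and 0.79. It was 0.73 at the D. simulans level, 0.996 between the parents and 0.69 over all 808. These sizes, and the count of 84, depend on the cutoffs. Parents near 0.5 apart leave little room for a hybrid more than 0.2 from each, and a midway hybrid then lies close to the 0.2 limit. Only 9 of the 75 members (12%), 3 of them named, differed by at least 2-fold between the parents, against 21.2% of the 808. The share was 15.1% at the D. simulans level and 48.8% between the parents, and the cutoffs bear on these shares in the same way. It was 3.60% over all positions, most of which did not meet the parental threshold.

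**Figure D1:**
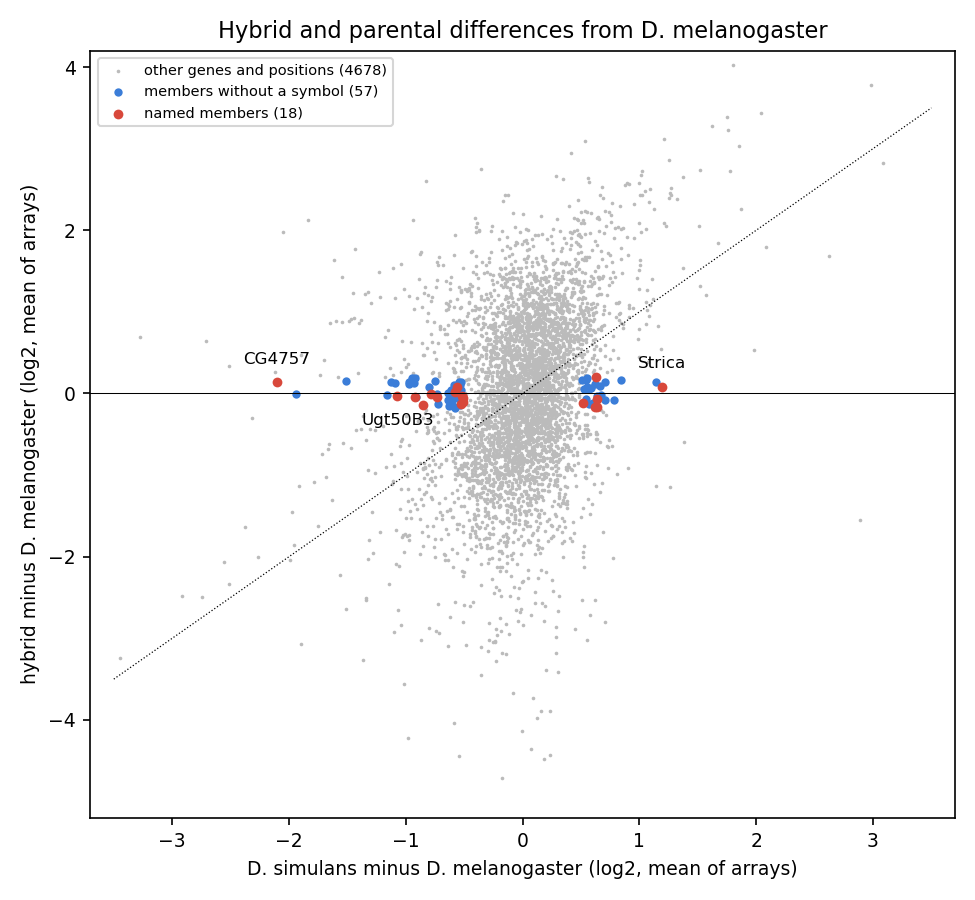
Mean log2 difference of the hybrid from D. melanogaster (vertical axis) against that of D. simulans from D. melanogaster (horizontal axis), in the adopted reading, with 1 point per gene or position and the dotted line marking a hybrid at the D. simulans level. The 18 named members (red) and the 57 members without a symbol (blue) form a band along 0, while most of the other points spread far above and below it.

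Among genes of cell death and stress signalling, Strica (CG7863, chromosome arm 2R) encodes a caspase with a long N-terminal domain that acts redundantly with the initiator caspase Dronc when germline cells die during oogenesis. On the 6 arrays of D. simulans against D. melanogaster its log2 ratio ran from 1.03 to 1.32 with a median of 1.20, a mean of 1.19 ± 0.11 (SD, n = 6 arrays) and a 2.28-fold difference. Hybrid against D. melanogaster, the same gene ran from -0.05 to 0.25 with a median of 0.04 and a mean of 0.08 ± 0.11 (n = 6). Every array of the first set lay above every array of the second. Hybrid against D. simulans, Strica ran from -1.16 to -0.83 with a median of -0.99 and a mean of -0.98 ± 0.12 (n = 6), or 1.98-fold lower in the hybrid. The arrays repeated closely for this gene: its SD lay at the 13.8, 4.1 and 4.2 percentile of all positions in the parental comparison and in the comparisons of the hybrid with D. melanogaster and with D. simulans.

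PEK (CG2087, 3R), the kinase that phosphorylates the initiation factor eIF2alpha under stress of the endoplasmic reticulum, was higher in D. simulans by 0.52 ± 0.14, with arrays from 0.29 to 0.70 and a median of 0.52. Hybrid arrays against D. melanogaster ran from -0.45 to 0.58 with a median of -0.32 and a mean of -0.11 ± 0.42. The hybrid mean near 0 thus combined 4 arrays below 0 and 2 above, and both ranges overlapped. Against D. simulans the hybrid stood at -0.69 ± 0.083, from -0.80 to -0.62 with a median of -0.66, a tight set with all 6 arrays below 0. The gene dj-1beta (CG1349, 3R), a relative of human PARK7 that protects against oxidative stress, was lower in D. simulans, at -0.85 ± 0.25, with arrays from -1.13 to -0.50 and a median of -0.86. Its hybrid arrays ran from -0.48 to 0.10 against D. melanogaster, with a median of -0.10 and a mean of -0.14 ± 0.24, and did not overlap the parental arrays. Against D. simulans the hybrid mean was 0.87 ± 0.40, from 0.50 to 1.60 with a median of 0.79.

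The list of apoptosis and associated signalling genes held 41 symbols, of which 6 were measured, and Strica was the only one in the class. Of all named genes tested, 1.30% were in the class. The other 5 had patterns of their own. The transcription factor gene p53 stood at -0.84 in D. simulans and -0.91 in the hybrid, both against D. melanogaster, and its hybrid mean against D. simulans was -0.30. AIF, a mitochondrial flavoprotein gene, stood at 0.36 in D. simulans and -1.35 in the hybrid. The F-box gene morgue stood at 0.34 and -0.30, and the JNK phosphatase gene puc at 0.20 and 0.66. The JNK kinase gene hep stood at -0.04 in D. simulans and -0.19 in the hybrid, with no parental difference of the size the class asks for. The median of the 6 list members was 0.27 in D. simulans and -0.24 in the hybrid, against 0.02 for both over all positions. Strica, chosen by the rule, is included. The 6 genes ran from -0.84 to 1.19 in D. simulans and from -1.35 to 0.66 in the hybrid. No common shift is read from their medians.

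Of genes acting on growth, chromatin and RNA, BHD (CG8616, 3L) encodes the relative of human folliculin, a regulator of nutrient signalling at the lysosome. D. simulans stood below D. melanogaster, at -0.78 ± 0.25 (n = 6), from -1.16 to -0.51 with a median of -0.79. Its hybrid mean of 0.00 ± 0.28 against D. melanogaster came from arrays between -0.37 and 0.39, with a median of 0.03. The parental and hybrid ranges did not overlap. Against D. simulans the hybrid mean was 0.98 ± 0.35, from 0.66 to 1.62 with a median of 0.94.

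The gene caly (CG8445, 2R) encodes calypso, the histone H2A deubiquitinase of a Polycomb complex. D. simulans stood above D. melanogaster by 0.63 ± 0.66, with arrays from 0.26 to 1.96 and a median of 0.37. The mean rested on 1 array at 1.96, and without it was 0.36, under the 0.5 that defines the class. Its hybrid mean against D. melanogaster, 0.20 ± 0.61, lay at the edge of the class and covered arrays from -0.41 to 1.19 with a median of 0.04. Hybrid against D. simulans, caly ran from -0.77 to 0.27 with a median of -0.46 and a mean of -0.37 ± 0.37. The parental and hybrid arrays overlapped.

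For xmas (CG46386, X), whose product takes part in the export of mRNA through the nuclear pore, D. simulans was higher by 0.64 ± 0.33, with arrays from 0.30 to 1.12 and a median of 0.57. The hybrid arrays against D. melanogaster spread from -0.97 to 0.80 with a median of -0.16 and a mean of -0.17 ± 0.73. Those hybrid arrays fell 3 to each side of 0 and overlapped the parental ones. Against D. simulans all 6 arrays were below 0, from -1.61 to -0.52 with a median of -1.03 and a mean of -1.06 ± 0.45. The gene caz (CG3606, X), which encodes an RNA-binding protein, had parental arrays from -1.56 to 0.57, with a median of -0.54 and a mean of -0.51 ± 0.75. With 2 of 6 arrays above 0, its parental direction was not stable between arrays. The hybrid stood at -0.06 ± 0.44 against D. melanogaster, from -0.77 to 0.46 with a median of 0.00, and at 0.21 ± 0.066 against D. simulans (n = 4), from 0.15 to 0.30 with a median of 0.20.

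**Figure D2:**
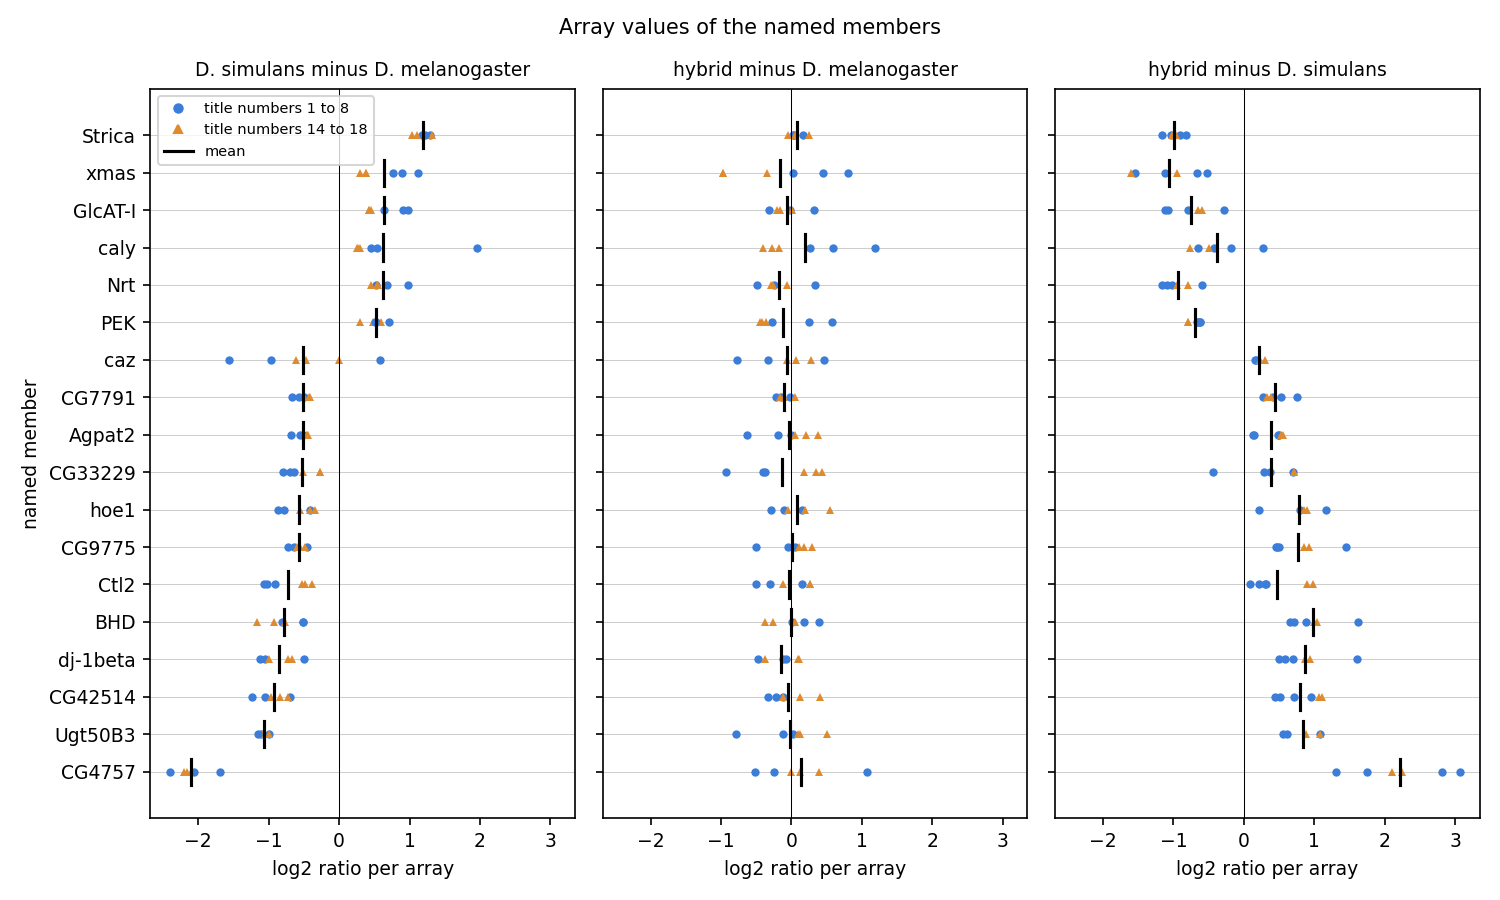
Log2 ratio of each of the 18 named members on each array, in 3 panels for the 3 pairs of RNA, with circles for title numbers 1 to 8, triangles for title numbers 14 to 18 and a black bar at the mean. Strica and CG4757 stand far from 0 in the outer panels, while in the middle panel the bars lie within 0.2 of 0 and the arrays scatter widely around them for xmas, caly, CG33229 and CG4757.

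Among enzymes of lipid, sugar and ester chemistry, CG4757 (3R), which encodes a protein of the carboxylesterase family, had the largest parental difference of all 75 members. Its parental arrays ran from -2.41 to -1.69 with a median of -2.13 and a mean of -2.10 ± 0.24 (n = 6), a 4.30-fold lower level in D. simulans. The hybrid arrays ran from -0.52 to 1.07 against D. melanogaster, with a median of 0.06 and a mean of 0.14 ± 0.56. No hybrid array came near the parental ones, although the hybrid arrays spread widely. Against D. simulans the hybrid stood at 2.22 ± 0.66, from 1.31 to 3.08 with a median of 2.18, or 4.65-fold higher.

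Ugt50B3 (CG30438, 2R), a UDP-glycosyltransferase gene of the family that conjugates small lipophilic compounds, was lower in D. simulans, at -1.07 ± 0.070 (n = 5), from -1.15 to -1.0 with a median of -1.10, or 2.10-fold. Its hybrid arrays against D. melanogaster ran from -0.78 to 0.50 with a median of 0.05 and a mean of -0.03 ± 0.42. Parental and hybrid arrays were apart. Hybrid against D. simulans, the mean was 0.84 ± 0.25 (n = 5), from 0.56 to 1.08 with a median of 0.89.

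GlcAT-I (CG32775, X) encodes the glucuronyltransferase that completes the sugar linker by which heparan and chondroitin sulfate chains are joined to proteoglycans. It was higher in D. simulans by 0.64 ± 0.25, from 0.42 to 0.97 with a median of 0.55. The hybrid stood at -0.06 ± 0.23 against D. melanogaster, from -0.33 to 0.33 with a median of -0.09. The 2 sets of arrays did not overlap. Against D. simulans it stood at -0.75 ± 0.32, from -1.12 to -0.28 with a median of -0.72.

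Agpat2 (CG17608, 2L) encodes an acyltransferase that makes phosphatidic acid, a precursor of phospholipids and triglycerides. Its parental arrays were close together, from -0.69 to -0.44 with a median of -0.49 and a mean of -0.52 ± 0.095. Hybrid arrays against D. melanogaster ran from -0.63 to 0.38 with a median of 0.03 and a mean of -0.03 ± 0.35, and 1 of them, the lowest, lay in the parental range. Against D. simulans all 6 were above 0, from 0.14 to 0.56 with a median of 0.49 and a mean of 0.39 ± 0.20.

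At the cell surface and in membranes, Nrt (CG9704, 3L) encodes neurotactin, a transmembrane adhesion protein of the nervous system with a cholinesterase-like outer part. D. simulans was higher by 0.62 ± 0.19, from 0.45 to 0.98 with a median of 0.54. The hybrid stood at -0.17 ± 0.28 against D. melanogaster, from -0.49 to 0.33 with a median of -0.26, and 5 of 6 arrays were below 0. Parental and hybrid arrays were apart, and the hybrid lay on the far side of D. melanogaster. Against D. simulans it stood at -0.94 ± 0.21, from -1.17 to -0.59 with a median of -0.99.

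Ctl2 (CG11880, 3R), a gene of the choline transporter-like family, was lower in D. simulans, at -0.73 ± 0.30, from -1.07 to -0.38 with a median of -0.72. In the hybrid it stood at -0.04 ± 0.32 against D. melanogaster, from -0.50 to 0.27 with a median of 0.02. The ranges overlapped. The mean against D. simulans was 0.47 ± 0.38, from 0.08 to 0.98 with a median of 0.31. The transporter-like gene hoe1 (CG12787, 2L), a relative of the human pigmentation gene OCA2, was lower in D. simulans, at -0.56 ± 0.22, from -0.87 to -0.35 with a median of -0.49. The hybrid stood at 0.08 ± 0.29 against D. melanogaster, from -0.29 to 0.55 with a median of 0.05, apart from the parental arrays. Against D. simulans it stood at 0.79 ± 0.35 (n = 5), from 0.22 to 1.17 with a median of 0.85.

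As for CG4757, the symbol of the other 4 named members is a bare gene number, and no role is given for them. CG42514 (3L) was lower in D. simulans, at -0.92 ± 0.21, from -1.24 to -0.70 with a median of -0.90, and stood in the hybrid at -0.04 ± 0.27 against D. melanogaster, from -0.33 to 0.41 with a median of -0.12. Hybrid against D. simulans, its arrays ran from 0.44 to 1.11 with a median of 0.83 and a mean of 0.80 ± 0.29. The parental arrays of CG42514 were apart from the hybrid ones. CG9775 (3R) had a parental mean of -0.58 ± 0.10, from -0.73 to -0.46 with a median of -0.57, and a hybrid mean of 0.01 ± 0.28 against D. melanogaster, from -0.50 to 0.29 with a median of 0.08. Hybrid against D. simulans, CG9775 ran from 0.46 to 1.45 with a median of 0.68 and a mean of 0.78 ± 0.39. A single hybrid array of CG9775, at -0.50, reached the parental range. CG7791 (2R) repeated closely, with parental arrays from -0.68 to -0.41, a median of -0.50 and a mean of -0.51 ± 0.098. Its hybrid arrays against D. melanogaster ran from -0.21 to 0.04 with a median of -0.13 and a mean of -0.10 ± 0.096, and against D. simulans from 0.27 to 0.76 with a median of 0.40 and a mean of 0.45 ± 0.18. The parental and hybrid ranges of CG7791 were apart although the parental difference only just met the threshold. CG33229 (3L) had parental arrays from -0.80 to -0.27 with a median of -0.58 and a mean of -0.53 ± 0.22. Hybrid arrays of CG33229 spread from -0.93 to 0.43 against D. melanogaster with a median of -0.10 and a mean of -0.13 ± 0.53, and from -0.44 to 0.72 against D. simulans with a median of 0.53 and a mean of 0.39 ± 0.45. The parental and hybrid arrays of CG33229 overlapped.

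Over the whole class, the sign of the parental difference was the same on every array with a value at 69 of 75 members, 17 of them named, where 42.2% of all positions had 1 sign throughout. The exception among the named members was caz. Against D. simulans the hybrid had 1 sign throughout at 64 members, compared with 66.3% of all positions, and against D. melanogaster at 1, compared with 70.2%. The parental and hybrid arrays against D. melanogaster did not overlap at 31 members, 10 of them named, against 45.3% of all positions. These shares follow from values that chose the members, and nothing is read from them. Hybrid means lay on the D. simulans side of D. melanogaster at 39 members and beyond D. melanogaster at 36, with a median of 0.00 for the signed difference. Within 0.1 of D. melanogaster were 38 members, and 15 were between 0.15 and 0.2. Parental differences under 0.6 in size were held by 31 members. The limits of the rule bound these counts as well, and nothing is read from them.

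Just inside the parental threshold stood caz and CG7791, both at -0.51, and just outside it stood Cerk, a ceramide kinase gene, at -0.49 and scny, a ubiquitin protease gene, at 0.49. On the hybrid threshold, caly at 0.20 and Nrt at -0.17 were the named members nearest the limit, and tyf at -0.22 and brwl at 0.22 were the nearest named genes outside it. A hybrid mean more than 0.2 from D. simulans was common, held by 83.2% of all positions, and 4 members were less than 0.3 away. On that distance, caz at 0.21 and caly at -0.37 were nearest, with no named gene outside.

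The 57 members without a symbol had parental means from -1.94 to 1.14, 35 below and 22 above 0. Position 14.5.9 on the array held the highest, with parental arrays from 1.05 to 1.26 and a mean of 1.14 ± 0.096 (n = 6). Its hybrid arrays ran from -0.12 to 0.33 against D. melanogaster with a mean of 0.14 ± 0.17, apart from the parental ones, and the hybrid stood at -1.07 ± 0.27 against D. simulans. Position 7.14.18 held the lowest parental mean, -1.94 ± 1.14, with arrays from -3.20 to -0.24. Hybrid against D. melanogaster it ran from -0.80 to 0.69, so parental and hybrid arrays overlapped there, and against D. simulans from 1.90 to 2.90. Several other unnamed members had profiles close to each other, with parental means from -1.13 to -0.92. Their hybrid means were 0.12 to 0.19 against D. melanogaster and 1.16 to 1.20 against D. simulans. Their parental means were -0.56 to -0.33 with D. simulans in channel 1 and -1.70 to -1.49 with it in channel 2. At each, 1 parental array lay above 0. Each was counted separately among the 75 members and the 47 below, and whether they share a transcript was not tested.

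The parental difference can also be read through the hybrid, as the hybrid's difference from D. melanogaster minus its difference from D. simulans. In this indirect reading 74 of the 75 members had the same parental sign and 61 were still at least 0.5 apart, 16 of them named. Over all positions 3928 of 4753 had the same sign and 845 were at least 0.5 apart with that sign. Below 0.5 among the named members were Agpat2 at -0.42 and caz at -0.27. Strica stood at 1.06 indirectly, CG4757 at -2.08 and BHD at -0.99. The median of the members was 0.69 indirectly against 0.63 directly, and the direct and indirect values differed by a median of 0.11 in size, against 0.12 over all positions. All 3 pairs entered the rule, so this is a check of how the arrays fit together and not independent evidence.

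**Figure D3:**
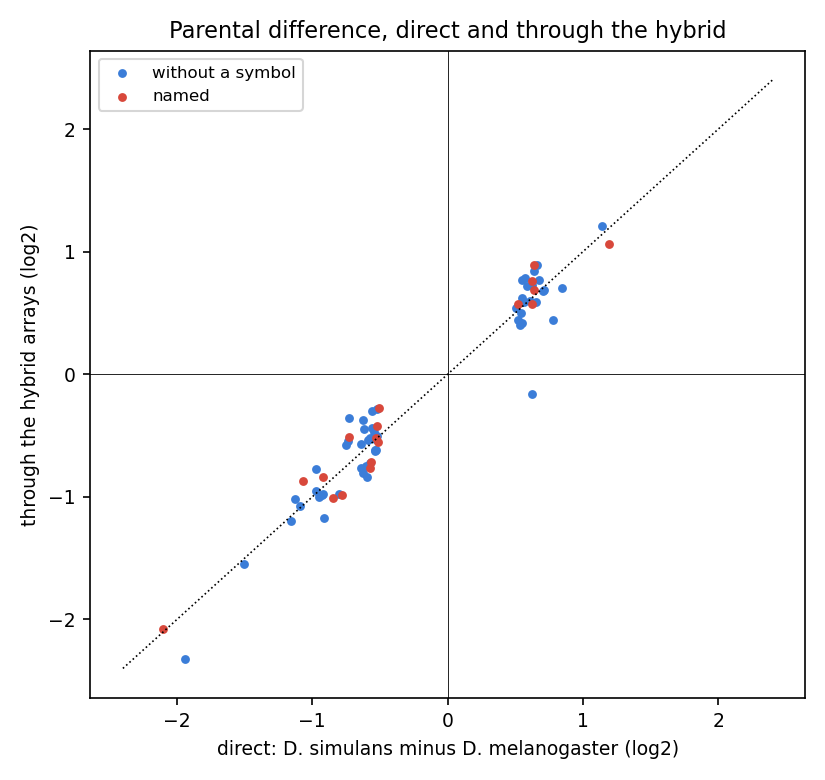
Parental log2 difference of the 75 members read through the hybrid arrays (vertical axis) against that from the direct arrays (horizontal axis), with named members in red, members without a symbol in blue and the dotted line marking equal values. All but 1 member lie in the lower left or upper right part. CG4757, near -2.1 on both axes, and Strica, above 1 on both, are the ends of the horizontal axis. On the vertical axis position 7.14.18 lies lowest at -2.32 and position 14.5.9 highest at 1.21.

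The 3 arrays with a single RNA in both channels were not used to choose members. On the D. melanogaster array the median size of the members' log2 ratios was 0.115, against 0.112 over all positions. On the D. simulans array it was 0.116 against 0.105, and on the hybrid array 0.083 against 0.094. Sizes over 0.5 were found at 1 of 74 members on the first, where 2.63% of all positions exceeded it. On the second it was 3 of 75, compared with 2.92%, and on the third 2 of 75, compared with 1.37%. Sizes over 0.3 were found at 10 of 74 (10% of all positions), 6 of 75 (9.73%) and 3 of 75 (6.70%) in the same order. The members' shares lay near those of all positions. With 1 array per RNA no test was made. Strica stood at -0.12, -0.06 and 0.03 and CG4757 at 0.11, -0.13 and -0.27 on the D. melanogaster, D. simulans and hybrid arrays, far less than their parental differences. In contrast, xmas stood at 0.62 on the hybrid array, close in size to its parental difference, and caz at -0.31 and -0.39 on the arrays of the 2 species. Position 15.16.14, an unnamed member with a parental mean of -0.97 ± 0.41, stood at -0.98, -0.91 and -0.61 on the arrays of D. melanogaster, D. simulans and the hybrid. The parental mean of xmas was 0.63 with D. simulans in channel 1 and 0.65 with it in channel 2. In the same order it was -0.17 and -0.85 for caz and -1.16 and -0.78 for position 15.16.14. Whether a channel effect enters the parental values was not tested.

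**Figure D4:**
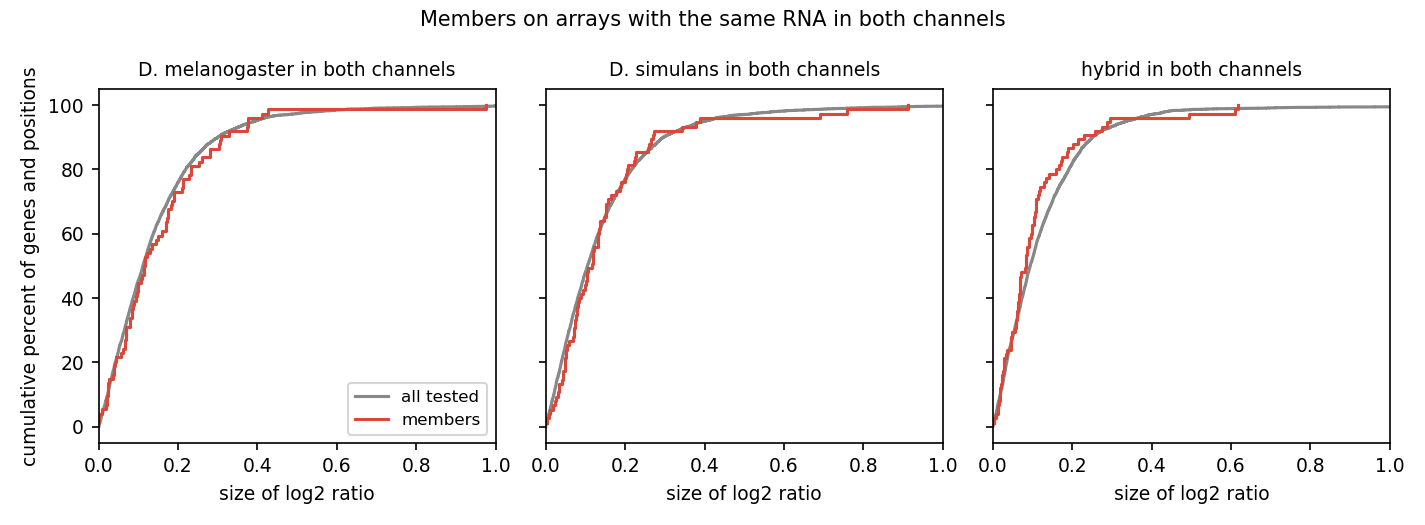
Cumulative percent of genes and positions (vertical axis) by the size of their log2 ratio (horizontal axis, shown up to 1) on the array of each RNA against itself, for the 75 members in red and all positions tested in grey. The curves run close together in all 3 panels, with medians near 0.1.

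Array titles carry numbers, and those from 1 to 8 and from 14 to 18 form 2 ranges. Each range has 3 arrays for the parental pair and 3 for the hybrid against D. melanogaster. The hybrid against D. simulans has 4 arrays in the first range and 2 in the second. In every pair the RNA named first was more often in channel 2 in the first range and in channel 1 in the second. Differences between the ranges can therefore include channel effects, which were not separated. What the title numbers stand for is not given in the sources used here. At 44 of 74 members with values in both, the hybrid mean against D. melanogaster had opposite signs in the 2 ranges, and 27 stayed within 0.2 in both. Over all positions the signs were opposite at 550 of 4694 and both means within 0.2 at 350 of 4694. The members were chosen for a hybrid mean near 0, so nothing is read from the difference in these shares. The gap between the ranges was 0.31 at the median member and 0.24 at the median position. Among named members, Strica stood at 0.08 in each range, CG4757 at 0.10 and 0.17, and CG7791 at -0.13 and -0.08. By contrast, xmas stood at 0.42 with title numbers 1 to 8 and -0.76 with 14 to 18, caly at 0.68 and -0.29, CG33229 at -0.57 and 0.32, and PEK at 0.18 and -0.41. Opposite signs in the 2 ranges were found at 12 of the 18 named members, among them BHD, whose mean of 0.00 averaged 0.19 and -0.19, and CG9775, at -0.17 and 0.19. The parental sign was the same in both ranges at all 74 members, which were chosen for a large parental mean, and at 3616 of 4694 positions. The size of the parental difference was larger with title numbers 1 to 8 at 53 of the 74 members (71.6%) and at 59.1% of all positions.

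**Figure D5:**
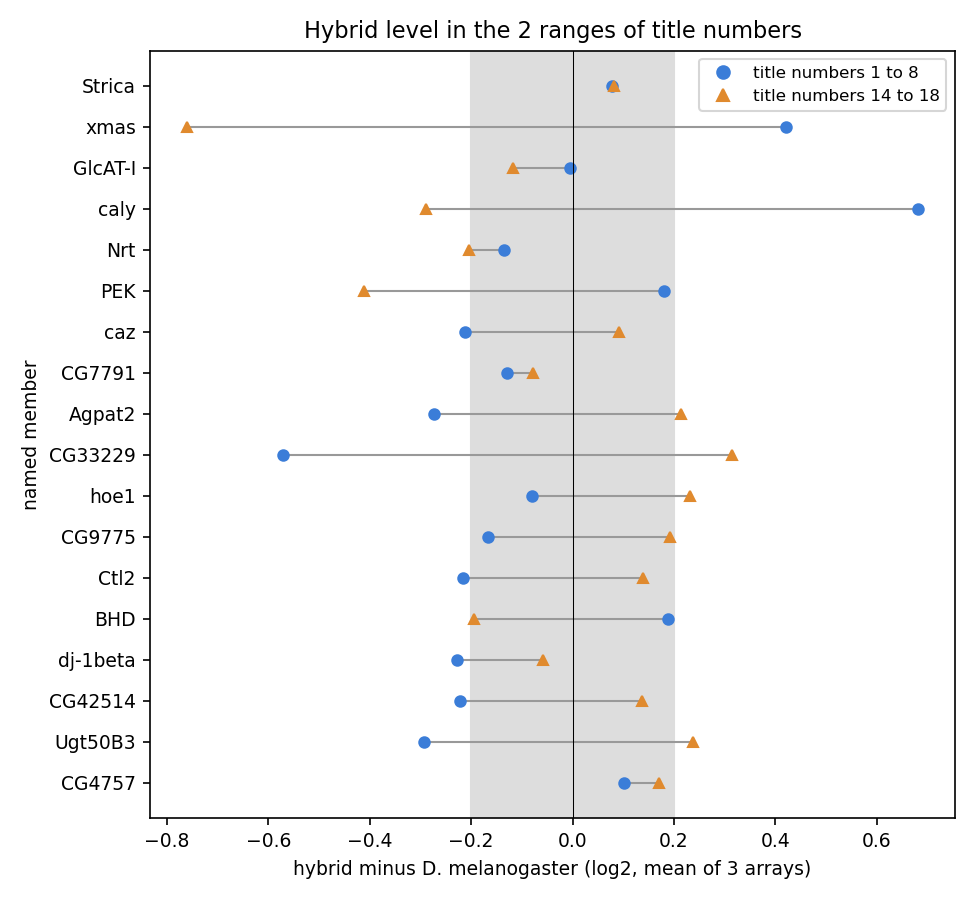
Hybrid minus D. melanogaster in log2 (horizontal axis) for each named member, as the mean of the 3 arrays with title numbers 1 to 8 (blue circles) and of the 3 with title numbers 14 to 18 (orange triangles), with the limits of the class at 0.2 on either side of 0 in grey. Strica, CG4757, CG7791, GlcAT-I, CG9775 and BHD have both points inside the band, while xmas, caly, CG33229, Agpat2 and Ugt50B3 have both outside it.

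When the rule was applied to the arrays with title numbers 1 to 8 alone and the values were read on the others, 107 positions were chosen. On the arrays that had not chosen them, 98 kept the parental sign and 55 were at least 0.5 apart in that direction, where 15.5% of all positions were 0.5 apart in either. For comparison, 3616 of all 4694 positions had the same parental sign in both ranges. The hybrid was within 0.2 of D. melanogaster at 30 of the 107, against 16.5% of all positions, and 16 met the whole rule, against 1.49%. Their median parental difference was 0.69 where they were chosen and 0.51 where they were read. Chosen on title numbers 14 to 18, 70 positions gave 59 with the same parental sign and 40 at least 0.5 apart, where 23.3% of all positions were. The hybrid was near D. melanogaster at 27 of the 70, against 16.4%, and 16 met the whole rule, against 2.28%. The named genes that met the rule in both ranges were Strica, BHD, CG4757 and CG9775. The same RNA pools were on both sets of arrays, so this reads repeatability of the arrays only.

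Named members lay on every major arm, with 2 of 238 named genes tested on 2L, 4 of 253 on 2R, 4 of 278 on 3L, 5 of 344 on 3R and 3 of 255 on the X. Chromosome 4 had 0 of 16. The X-linked members GlcAT-I, xmas and caz were 1.18% of the X-linked genes tested, against 1.30% of all 1384 named genes. Of the 14 gene lists, those for germline, cell cycle, fat body and lipid, detoxification, gut proteases, neprilysin-like, muscle, nervous system and vision, immunity, cuticle and chitin, proteasome and mitochondrial energy had 0 members in the class, of 2 to 10 measured genes each. The eggshell and yolk list had 0 measured genes. With 1.30% of all named genes in the class, lists this small would mostly hold 0 members. Nothing is read from these counts. Because the arrays hold RNA of whole females, fewer cells of a type and less RNA per cell cannot be told apart in any of these values.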

How the data were processed

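The authors deposited 1 linear ratio per probe position and array for 21 two-channel arrays. How the spots were scanned, corrected, normalized and filtered is not stated in the labels, and no channel intensities were used here. The spread between arrays covers technical repeats of 1 RNA pool per strain and not differences between pools. Per the labels, amino-allyl cDNA was coupled to cyanine dyes. Array medians of the deposited ratio ran from 0.852 to 1.11. Ratios were put on the log2 scale, centred on each array's median and turned by the channel labels. The platform annotation gave 1 symbol for 1943 of 6101 positions, several for 67 and none for 4091, and all 1943 were found in RefSeq's genes for the assembly Release 6 plus ISO1 MT, used for names and chromosomes. Positions of a gene were averaged, which left 4753 genes and positions with at least 4 values per pair, 1384 of them named.

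Every member with 1 symbol is named. The members and gene lists were chosen with earlier results of these data known, and no p-value is given, since the rule used these comparisons and each strain is 1 pool. Alternatives used limma 3.58.1 in R 4.3.3 and other summaries in Python 3.11.15. The steps were tested on simulated data. Sequences of probes, promoters and proteins were not used here.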

Additional observations from a re-analysis of the deposited data

Results flagged for a closer look

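One named member had an array far from the others of its pair. For caly, D. simulans against D. melanogaster, an array with title number 6 gave 1.96, and the nearest other array gave 0.54. The parental mean was 0.63 with that array and 0.36 without it. Chance alone flags about 1 in 20 groups of arrays, and 18 genes in 3 pairs were examined.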

How the results depend on the processing

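With any 1 of the 18 arrays left out, the class held 67 to 86 members and kept 61 to 75 of the 75, with D. simulans above at 24 to 30 and below at 39 to 60. Of the members, 35 met the rule in all 18 of these settings, 9 of them named. Strica, BHD and 5 unnamed positions met it in these and in all 11 other settings. Those covered centring, averaging, model, completeness, spread, title number and channel orientation. Not all of the 11 could have failed. Strica and BHD have 1 position and 6 values per pair, so single positions, complete values and the mean of the channel orientations repeat their main values. A common spread raised the parental value of Strica from 1.19 to 2.25, which makes the parental threshold easier to meet. Bringing every array to the same spread gave 217 members, 102 above and 115 below, and kept 71 of the 75. The median of the arrays kept 48 of the 75. Title numbers 1 to 8 kept 41, with 74 below, and 14 to 18 kept 32. Arrays with the first-named RNA in channel 1 alone kept 42 and in channel 2 alone 48, settings added after seeing the data. A hybrid limit of 0.1 left 38 members, 13 above and 25 below, all 38 of them in the class, and a limit of 0.3 gave 121, with 83 below. A parental difference of at least 1 left 9, 2 above and 7 below. In the other reading of the channels 47 members were above and 28 below. The model over all 18 arrays kept 59 and the deposited medians 57. The array farthest for caly was also the farthest for caz. Leaving it out, listed again after seeing the data, repeats 1 of the 18 settings above, with 82 members and 67 kept. No named member changed the sign of its parental difference or of its difference from D. simulans in the settings run for it. No paired analysis was possible because no result comes from a test and the pairs of RNA share only 1 title number, 16. Depth is unknown, since no channel intensities were used.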
